A study of Mus musculus with 8 samples.

Results

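The 7 genes described here, Fpr1, Fpr2, Mrgpra2a, Mrgpra2b, Ptafr, Ltb4r1 and Hcar2, encode G protein-coupled receptors with which neutrophils sense formyl peptides, other peptides, lipid mediators and metabolites. They were chosen by name, each has 1 row among the 25572 genes of the table, and all 7 were tested. RNA was sequenced from cells labelled as neutrophils, from PyMT-N tumours in C57/B6 mice. Cell sorting had separated these cells into those with high surface ICAM1 (titled cd54+) and those with low surface ICAM1 (titled cd54-). ICAM1, or CD54, is an adhesion molecule for the integrins of leukocytes. Each fraction gave 4 libraries, and the replicate numbers 1, 2, 3 and 5 occur once per fraction. The input was 150 pg of RNA a library. All mice carried the same kind of tumour and no genotype, age or drug is given in the labels, so both groups share everything that is labelled except the sort. PyMT-N is not explained further in the labels, nor are the other markers of the sort or whether animals were pooled.

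Chemoattractant receptors couple mainly to Gi proteins, whose beta-gamma subunits switch on phosphoinositide 3-kinase gamma and phospholipase C and so steer a neutrophil towards the source of its ligand. Formyl peptides, which bacteria and injured mitochondria release, mark damage at close range, while leukotriene B4, made by neutrophils themselves, relays the signal from cell to cell. G protein-coupled receptor kinases, arrestins and RGS proteins then end the signal.

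Library totals ran from 15940328 to 21825096 estimated counts, with levels given as CPM, the usual count scaled to library size, here with TMM-adjusted sizes. A floor of detection of 3 counts lay at 0.121 to 0.263 CPM and covers counting error alone. The gene of the sort, Icam1, stood at 42.4 to 122 CPM in the ICAM1-high libraries, while ICAM1-low replicates 1, 2 and 3 had 4.31 to 18.7 CPM. For the library labelled ICAM1-low replicate 5 the value was 138 CPM, which exceeds all ICAM1-high libraries, so its Icam1 mRNA went against the label. Every one of the 7 receptors had its highest ICAM1-low CPM in that same library. The receptors' values below are therefore given with and without it where they depend on it. Its TMM factor was the lowest (0.718), which raises its CPM. By counts per length, used further below, Fpr2 was instead higher in ICAM1-low replicate 2 (1095 against 1071 TPM).

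The label of neutrophil was checked against 20 neutrophil markers. Of these, 19 were at 1 CPM or more in all 8 libraries, none was at 0 in a whole group, and their summed level was 8905 to 52282 CPM in ICAM1-low and 2595 to 5688 CPM in ICAM1-high libraries. Ly6g is the surface protein by which mouse neutrophils are usually recognised. It was at 25.9 to 41.1 CPM in ICAM1-low and 0.095 to 3.99 CPM in ICAM1-high libraries. Its 0.095 CPM in ICAM1-high replicate 1 lay below the floor of detection there (0.143 CPM). Markers of macrophages moved the other way: the sum over 17 was 1270 to 1991 CPM in ICAM1-low and 7417 to 17554 CPM in ICAM1-high libraries, with 15 of the 17 at 1 CPM or more in every library and none at 0 in a whole group. Sums over 12 dendritic cell markers (298 to 564 against 3362 to 6931 CPM) and over 12 T and NK cell markers (2.46 to 53.9 against 87.3 to 358 CPM) were also lower in ICAM1-low libraries, and Flt3 and Gzma were at 0 in all of these. Sums that were higher in ICAM1-low included those over 9 monocyte markers (8467 to 15644 against 3090 to 5400 CPM, 8 of 9 at 1 CPM or more in every library). The sum over 8 mast cell, basophil and eosinophil markers was also higher (83.9 to 154 against 18.7 to 56.8 CPM, with Epx and Fcer1a each at 0 in a whole group). For 7 fibroblast markers the sums overlapped, at 1593 to 2563 CPM in ICAM1-low and 447 to 1929 CPM in ICAM1-high libraries. All 7 were at 1 CPM or more in every library. Sums over 8 B cell markers also overlapped, at 49.1 to 415 CPM in ICAM1-low and 278 to 2072 CPM in ICAM1-high libraries. Epithelial and tumour markers summed to at most 68.4 CPM and endothelial markers to at most 67.0 CPM. Single monocyte markers went both ways. By the edgeR rule given below, 3 of the 9 were higher in ICAM1-high (1.22% of all tested genes) and 1 was lower (0.273%). With the library labelled ICAM1-low replicate 5 left out, 3 were higher (2.36%) and 3 lower (1.69%). In ICAM1-high libraries the lowest macrophage sum (7417 CPM) was above the highest neutrophil sum (5688 CPM). The markers thus did not bear out the label of neutrophil alone for these libraries. Sums over different markers do not give shares of cells. The part of these other cells in the receptor results was not tested. In bulk libraries, fewer cells that carry a receptor and less of its RNA per cell cannot be told apart. In the library labelled ICAM1-low replicate 5, Ly6g was at 39.8 CPM and the macrophage sum at 1428 CPM. Both lay within the range of the other ICAM1-low libraries, unlike its Icam1. Its neutrophil sum, 52282 CPM, was the highest of all libraries.

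All 7 receptors had lower fitted levels in ICAM1-high libraries, but only the paired genes Mrgpra2a and Mrgpra2b passed the test. A gene was called where edgeR's quasi-likelihood test gave a Benjamini-Hochberg adjusted p under 0.05 over the 13575 genes tested, and log2 fold changes compare ICAM1-high with ICAM1-low. By that rule 2 of the 7 receptors were lower and 0 were higher, where 0.273% of all tested genes were lower and 1.22% higher. The 2 called genes are near-identical copies of each other, so they are not separate observations. The median log2 fold change was -2.86 over the 7 receptors and -0.065 over all tested genes, and all 7 values stayed negative under each of the 4 scalings tried. At an unadjusted p under 0.05, 5 receptors were lower and 0 higher by the edgeR test, against 8.96% of all tested genes lower and 7.96% higher. The groups did not overlap for 3 receptors, Fpr1, Mrgpra2a and Mrgpra2b, against 3.89% of tested genes that were lower and 7.51% that were higher without overlap. With the library labelled ICAM1-low replicate 5 left out, 2 receptors were still called lower, where 1.69% of tested genes were lower and 2.36% higher. The median over the receptors was then -1.45, 6 of the 7 were negative, 4 were lower at an unadjusted p under 0.05 by edgeR (10.7% of tested genes), and the same 3 were lower without overlap (10.6% of tested genes).

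**Figure D1:**
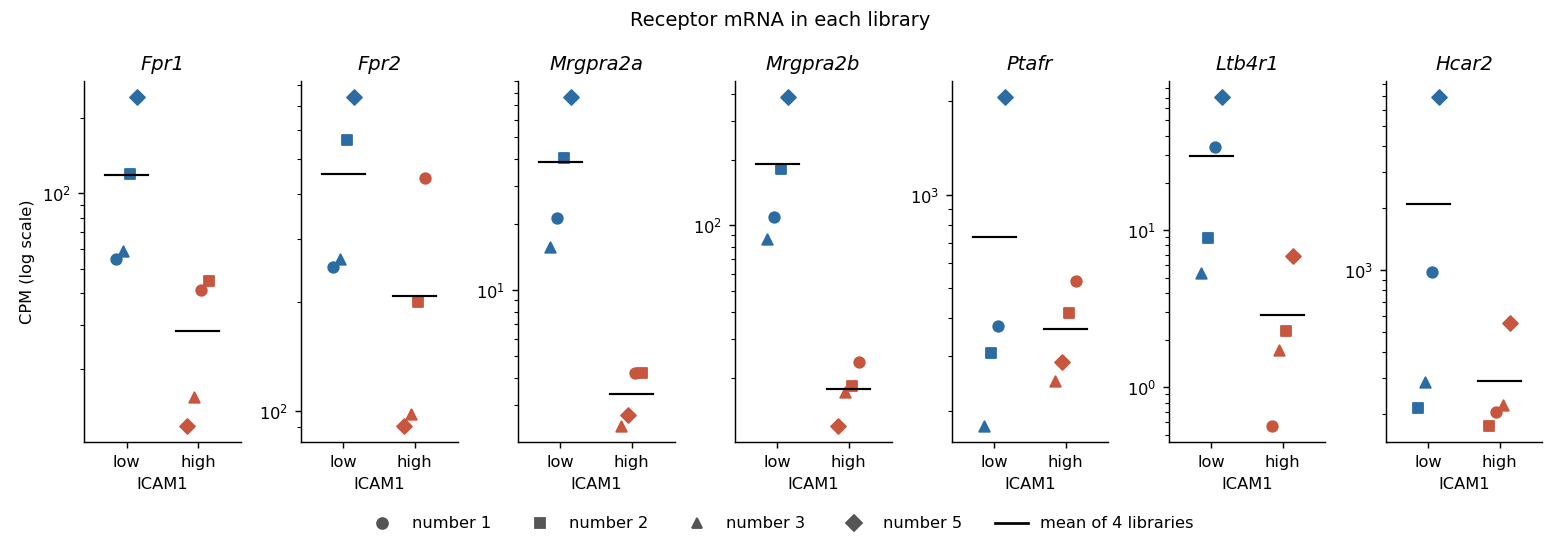
Level of each receptor in CPM (vertical axis, log scale, a separate range in each panel) in the 4 ICAM1-low (blue) and 4 ICAM1-high (red) libraries, with symbols for the library number and a line at the mean. The groups are apart for Fpr1, Mrgpra2a and Mrgpra2b, and the library labelled ICAM1-low replicate 5 is the highest point in every panel.

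Mrgpra2a and Mrgpra2b belong to the Mas-related receptors, a family best known from sensory neurons and mast cells. These 2 members are found on mouse neutrophils and respond to antimicrobial peptides such as defensins. Their sequences are shown first because they limit how far the 2 genes can be told apart. In the RefSeq promoter table of build GRCm38.p6, the 300 bases from 250 before to 50 after the annotated start were equal at all 300 positions in the 2 genes. Among the 32851 windows of that table, 1.58% were shared letter for letter with a gene of another symbol. The authors' build is GRCm39, so these coordinates are of another build than the counts. The 250 bases before the start and the first 30 of the transcript, printed on the minus strand, lie at chr7:47452135-47452414 for Mrgpra2a and chr7:47489553-47489832 for Mrgpra2b.
Mrgpra2a and Mrgpra2b: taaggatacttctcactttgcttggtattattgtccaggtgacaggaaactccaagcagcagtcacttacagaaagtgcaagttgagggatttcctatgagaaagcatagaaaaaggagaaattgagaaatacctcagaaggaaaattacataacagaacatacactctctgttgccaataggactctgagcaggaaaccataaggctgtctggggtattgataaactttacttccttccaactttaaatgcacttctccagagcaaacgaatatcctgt

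The coding sequences were nearly equal. In GENCODE release M21 both transcripts had 2 exons and a coding part of 993 bases, of which 2 differed. The stretches of 41 bases around both differences are printed below, with the base that differs in capitals. Coding positions are counted from 1 at the start codon, and the differences are at coding bases 351 and 890.
Mrgpra2a at 351: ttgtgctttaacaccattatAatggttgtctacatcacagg
Mrgpra2b at 351: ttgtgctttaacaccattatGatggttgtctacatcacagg
Mrgpra2a at 890: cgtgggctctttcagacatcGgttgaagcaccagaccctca
Mrgpra2b at 890: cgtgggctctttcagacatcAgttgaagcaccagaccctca
Of the 1210 runs of 31 bases in the Mrgpra2a transcript, 1113 (92.0%) also occurred in a Mrgpra2b transcript. Of the 1235 in the main Mrgpra2b transcript, 1113 (90.1%) occurred in Mrgpra2a. For Fpr1 and Fpr2, a pair from the same family, 20 of 1294 runs (1.55%) were shared. The split of reads between Mrgpra2a and Mrgpra2b is therefore uncertain.

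Mrgpra2b (ENSMUSG00000096719) had the higher estimated counts of the pair, as far as the uncertain split of reads can tell. It stood at 109, 182, 86.4 and 385 CPM in ICAM1-low replicates 1, 2, 3 and 5 and at 23.6, 18.4, 17.2 and 12.1 CPM in ICAM1-high replicates 1, 2, 3 and 5. The lowest ICAM1-low library was above the highest ICAM1-high library, and the 4 ICAM1-high libraries lay within 1.95-fold of each other. Mrgpra2b averaged 191 ± 136 CPM in the first group and 17.8 ± 4.73 CPM in the second (SD, n = 4). It fell 10.7-fold, with a log2 fold change of -3.42 and an SE of 0.57 (adjusted p = 0.0178 by edgeR).

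Mrgpra2a (ENSMUSG00000093973) had the same pattern at a lower level. Its values were 21.5, 40.4, 15.8 and 76.0 CPM in ICAM1-low replicates 1, 2, 3 and 5 and 4.18, 4.19, 2.41 and 2.71 CPM in ICAM1-high replicates 1, 2, 3 and 5. The means were 38.4 ± 27.2 and 3.37 ± 0.946 CPM (SD, n = 4). It fell 11.4-fold, with a log2 fold change of -3.51 and an SE of 0.69 (adjusted p = 0.0348 by edgeR). Of the 4 same-numbered pairs, all 4 were lower in ICAM1-high for both genes. With the counts of the 2 genes summed before the fit, which removes the question of the split, the log2 fold change was -3.43 ± 0.57 (SE; edgeR adjusted p = 0.0173).

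With 1 library left out at a time, the log2 fold change of Mrgpra2a stayed between -3.76 and -2.93 and that of Mrgpra2b between -3.66 and -2.81, while most of the calls were lost. With the library labelled ICAM1-low replicate 5 left out, the log2 fold changes were -2.93 for Mrgpra2a and -2.81 for Mrgpra2b, both past the threshold. Both also stayed past it without ICAM1-low replicate 3, where 0.336% of tested genes were lower. Mrgpra2a was no longer past it without ICAM1-low replicate 1 (edgeR adjusted p = 0.0668), ICAM1-low replicate 2 (0.0816), ICAM1-high replicate 1 (0.106), ICAM1-high replicate 2 (0.105), ICAM1-high replicate 3 (0.0874) or ICAM1-high replicate 5 (0.118). Mrgpra2b was past it without ICAM1-low replicate 2, where 0.021% of tested genes were lower, and not without ICAM1-low replicate 1 (edgeR adjusted p = 0.0521), ICAM1-high replicate 1 (0.0628), ICAM1-high replicate 2 (0.0731), ICAM1-high replicate 3 (0.0583) or ICAM1-high replicate 5 (0.0748). Without both libraries numbered 5, Mrgpra2b stayed past the threshold and Mrgpra2a did not (log2 fold change -2.83; edgeR adjusted p = 0.0664), with 1.38% of tested genes called lower.

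Fpr1 (ENSMUSG00000045551), the high-affinity receptor for formyl peptides, was lower without overlap but was not called. It stood at 54.8, 120, 58.9 and 241 CPM in ICAM1-low replicates 1, 2, 3 and 5 and at 41.1, 44.7, 15.5 and 11.9 CPM in ICAM1-high replicates 1, 2, 3 and 5. The gap between the groups was narrow, from 44.7 to 54.8 CPM, with all 4 same-numbered pairs lower in ICAM1-high. Means were 119 ± 86.7 and 28.3 ± 17.0 CPM (SD, n = 4), and the log2 fold change was -2.07 ± 0.64 (SE; adjusted p = 0.142 by edgeR). With the library labelled ICAM1-low replicate 5 left out, the value was -1.45 (edgeR adjusted p = 0.173). DESeq2, which called 4.76% of its tested genes lower, placed Fpr1 past the threshold (adjusted p = 0.0382).

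Fpr2 (ENSMUSG00000052270) binds a wider range of ligands, among them annexin A1, serum amyloid A and the cathelicidin peptide. It was the more abundant formyl peptide receptor in every library. Its values were 251, 563, 264 and 740 CPM in ICAM1-low replicates 1, 2, 3 and 5 and 443, 201, 97.6 and 90.8 CPM in ICAM1-high replicates 1, 2, 3 and 5. The groups overlapped, since ICAM1-high replicate 1 was above ICAM1-low replicates 1 and 3, and 3 of 4 pairs were lower in ICAM1-high. The log2 fold change of -1.13 ± 0.61 (SE, n = 4 against 4) missed the threshold (adjusted p = 0.375 by edgeR), and without ICAM1-high replicate 1 it was -1.80 (edgeR adjusted p = 0.241). With the library labelled ICAM1-low replicate 5 left out, it was -0.79 (edgeR adjusted p = 0.485).

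Ltb4r1 (ENSMUSG00000046908) encodes BLT1, the high-affinity receptor for leukotriene B4, and had low counts. Its values were 33.7, 8.89, 5.32 and 70.1 CPM in ICAM1-low replicates 1, 2, 3 and 5 and 0.57, 2.30, 1.74 and 6.90 CPM in ICAM1-high replicates 1, 2, 3 and 5. All 8 values were above the floor of detection, the lowest of them resting on 12 counts. The groups overlapped only through ICAM1-high replicate 5, which was above ICAM1-low replicate 3. Within ICAM1-low the highest library was 13.2 times the lowest, and within ICAM1-high 12.1 times. The log2 fold change was -3.36 ± 1.03 (SE; edgeR adjusted p = 0.137), with all 4 pairs lower in ICAM1-high, and -2.49 without the library labelled ICAM1-low replicate 5 (edgeR adjusted p = 0.178). DESeq2 placed it past the threshold (adjusted p = 0.00738).

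The promoter of Ltb4r1 was the one among the receptors with a match to the myeloid factor PU.1, and it is printed for that reason. Matches were searched on both strands with the letters GAGGAAGT for PU.1, TTGCNNCAA for C/EBP, TGANTCA for AP-1 and TGTGGT for RUNX, where N is any base, and for the NF-kB motif. The sequence, on the plus strand at chr14:55765712-55765991 of GRCm38.p6 in RefSeq, has the matches in capitals, and the last 30 bases are transcribed. A PU.1 match on the opposite strand covers bases 1 to 8 of the transcript and adjoins a RUNX match at bases -6 to -1, and another RUNX match lies at -222 to -217.
Ltb4r1: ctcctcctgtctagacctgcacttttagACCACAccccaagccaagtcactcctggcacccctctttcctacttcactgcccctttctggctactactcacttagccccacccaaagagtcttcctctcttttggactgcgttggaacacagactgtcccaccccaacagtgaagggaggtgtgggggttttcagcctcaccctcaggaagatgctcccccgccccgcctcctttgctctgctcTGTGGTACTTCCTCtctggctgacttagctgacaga
Of the 6 receptors with a promoter in the table (all but Hcar2), 1 held the PU.1 letters, against 3.20% of all windows of that length. RUNX letters were in 2, Ltb4r1 and Fpr2, against 16.8%. None of the 6 held a match for C/EBP (2.08% of all windows), AP-1 (7.81%) or NF-kB (5.56%), which says only that these letters are not in these windows. Variants of these motifs with other letters or lengths were not searched. The Mrgpra2a and Mrgpra2b windows, being equal, count as 1 sequence.

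Ptafr (ENSMUSG00000056529) encodes the receptor for platelet-activating factor, a phospholipid mediator of neutrophils, macrophages and platelets. Its direction rested on 1 library. It stood at 376, 307, 179 and 2060 CPM in ICAM1-low replicates 1, 2, 3 and 5 and at 524, 414, 249.7 and 289 CPM in ICAM1-high replicates 1, 2, 3 and 5. ICAM1-high was the higher member in pairs 1, 2 and 3, and in pair 5 the library labelled ICAM1-low was far higher. The log2 fold change was -0.99 ± 0.72 with all libraries (SE; edgeR adjusted p = 0.521) and 0.36 without the library labelled ICAM1-low replicate 5 (edgeR adjusted p = 0.684), neither past the threshold.

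Hcar2 (ENSMUSG00000045502) encodes the receptor for nicotinic acid and the ketone body beta-hydroxybutyrate, and it varied most within a group. Its values were 975, 214, 286 and 6909 CPM in ICAM1-low replicates 1, 2, 3 and 5 and 206, 176, 220.5 and 551 CPM in ICAM1-high replicates 1, 2, 3 and 5. The highest ICAM1-low library was 32.3 times the lowest, while the 4 ICAM1-high libraries lay within 3.14-fold. In both groups the library numbered 5 stood far above the other 3. The groups overlapped, although all 4 pairs were lower in ICAM1-high. The log2 fold change was -2.86 ± 1.03 (SE; edgeR adjusted p = 0.198), and without the library labelled ICAM1-low replicate 5 it was -0.78 (edgeR adjusted p = 0.498). DESeq2 placed Hcar2 past the threshold (adjusted p = 0.0445).

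**Figure D2:**
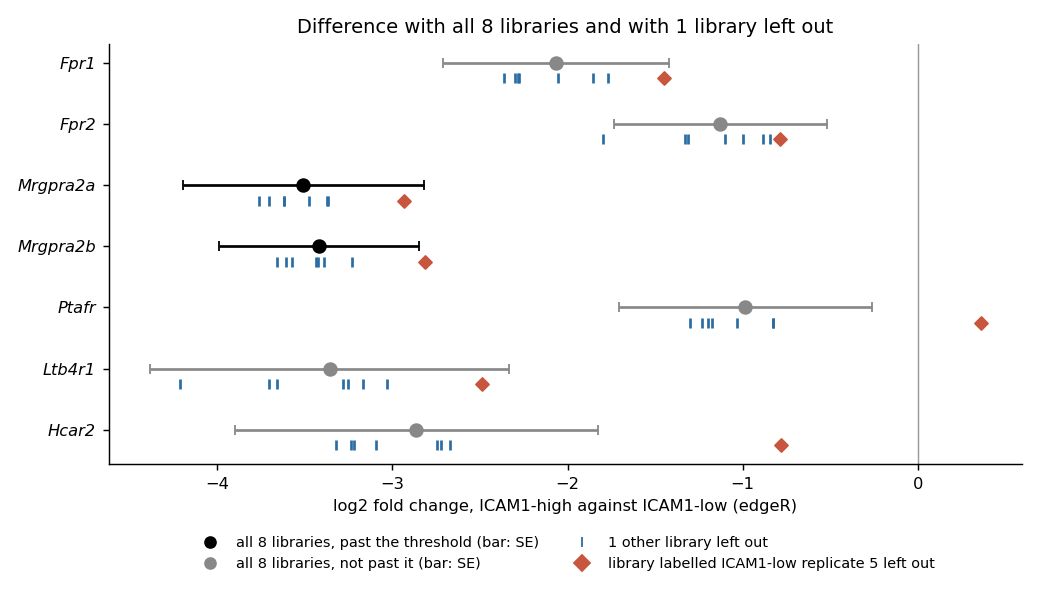
Log2 fold change of each receptor between ICAM1-high and ICAM1-low libraries (horizontal axis) with all 8 libraries (circles with the SE, black where past the threshold) and with 1 library left out (blue ticks, or a red diamond for the library labelled ICAM1-low replicate 5). Without that library Mrgpra2a and Mrgpra2b stay near -2.93 and -2.81, Hcar2 moves to -0.78 and Ptafr to 0.36.

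All 20 neutrophil markers had negative log2 fold changes and 5 of them fell by the edgeR rule, where 0.273% of all tested genes were lower. Each receptor was therefore also set against the markers within its own library. The mean log2 level of the 20 markers, taken as log2(CPM + 0.5), was 8.77 ± 0.93 over the ICAM1-low and 6.07 ± 0.56 over the ICAM1-high samples (SD, n = 4), a difference of -2.69 (two-sided exact permutation test over 70 assignments, p = 0.0286, the smallest that 4 against 4 can give). A receptor's relative level is its own log2(CPM + 0.5) minus that mean, which does not change with the scaling between libraries except through the small constant. Over the 7 receptors, 2 had an unadjusted p of 0.0286 and 0 had an adjusted p under 0.05 by the exact permutation test. With so few libraries this count has no weight, because at least 5 of the 7 receptors would have to reach the smallest p for any of them to pass, and a receptor that reached it alone would have an adjusted p of 0.2.

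The 2 were Ptafr and Fpr2, and both were higher relative to the markers in ICAM1-high. The marker mean itself differed by -2.69, while the median log2 fold change over all tested genes was -0.065. A gene with no change would therefore also stand higher relative to the markers. How many other genes did so was not tested, so this does not set the 2 receptors apart. The relative level of Ptafr was 0.12, -0.56, -0.30 and 0.99 in ICAM1-low replicates 1, 2, 3 and 5 and 2.87, 1.95, 1.96 and 2.80 in ICAM1-high replicates 1, 2, 3 and 5. The groups did not overlap, also with the library labelled ICAM1-low replicate 5 included, and the difference was 2.33 (exact permutation p = 0.0286, adjusted p = 0.1) and 2.64 without that library. The relative level of Fpr2 was -0.46, 0.31, 0.25 and -0.48 in ICAM1-low and 2.63, 0.91, 0.61 and 1.13 in ICAM1-high replicates 1, 2, 3 and 5, again without overlap. Its difference was 1.42 (exact permutation p = 0.0286, adjusted p = 0.1). With the median of the markers in place of the mean it was 0.94 (exact permutation p = 0.171, adjusted p = 0.3). With the library labelled ICAM1-low replicate 5 left out, the Fpr2 difference was 1.29.

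Relative to the mean of the markers, the groups overlapped for the Mrgpra2 pair. The relative level of Mrgpra2b was -1.44 ± 0.15 in the ICAM1-low and -1.92 ± 0.41 in the ICAM1-high fraction, a difference of -0.48 (SD, n = 4; exact permutation p = 0.0571, adjusted p = 0.133). That of Mrgpra2a was -3.74 ± 0.21 and -4.15 ± 0.40, a difference of -0.41 (exact permutation p = 0.2, adjusted p = 0.28). With the median of the markers these differences were -0.95 (exact permutation p = 0.0286, adjusted p = 0.1) and -0.88 (exact permutation p = 0.0857, adjusted p = 0.2). With only the markers at 10 CPM or more in both groups they were -0.54 (exact permutation p = 0.0286) and -0.47 (exact permutation p = 0.114). The smallest p needs groups that do not overlap, so the overlap of Mrgpra2b depended on how the markers were summarised. Fpr1 differed by 0.69 (adjusted p = 0.15), Hcar2 by 1.06 (adjusted p = 0.367) and Ltb4r1 by -0.15 (adjusted p = 0.886), all by the exact permutation test. With the library labelled ICAM1-low replicate 5 left out, these 3 differences were 0.71, 1.68 and 0.064, and those of Mrgpra2b and Mrgpra2a were -0.47 and -0.41. Hcar2 and Ltb4r1 were spread widely within the groups, with SDs of 1.28 to 1.63 and 1.08 to 1.54.

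**Figure D3:**
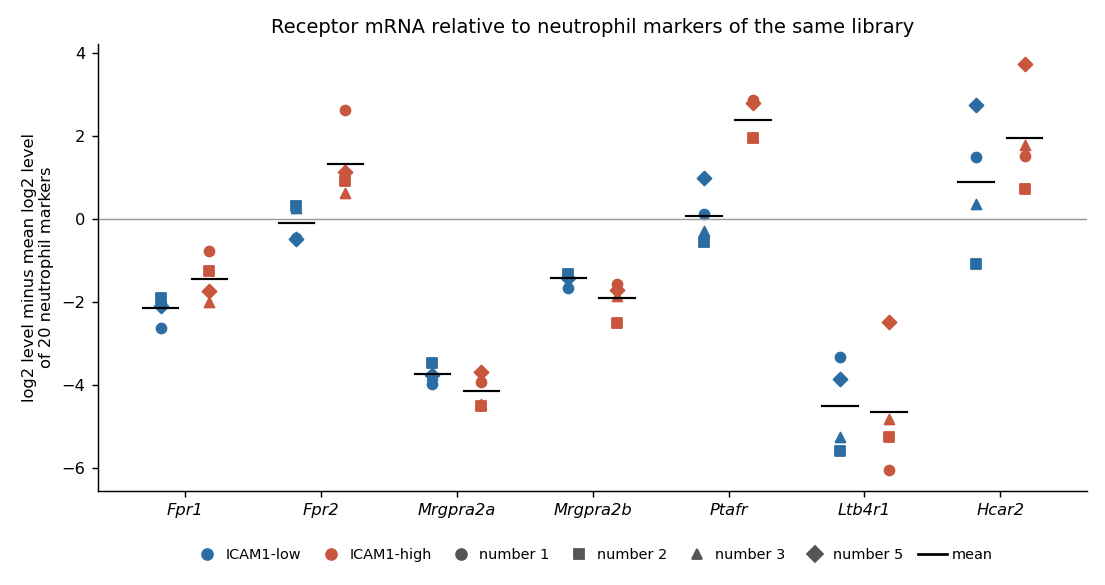
Level of each receptor relative to 20 neutrophil markers of the same library (vertical axis, log2 level minus the mean log2 level of the markers) in ICAM1-low (blue) and ICAM1-high (red) libraries, with symbols for the library number and a line at the mean. Fpr2 and Ptafr are higher in all 4 ICAM1-high than in all 4 ICAM1-low libraries, while Mrgpra2a, Mrgpra2b, Fpr1, Ltb4r1 and Hcar2 overlap.

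The balance within the receptor pairs was compared as a ratio of estimated counts per base of gene length, with 0.5 counts added. Mrgpra2b exceeded Mrgpra2a by 4.98, 4.40, 5.36 and 4.97 times in ICAM1-low and by 5.51, 4.29, 6.97 and 4.38 times in ICAM1-high replicates 1, 2, 3 and 5. The ratio thus stayed between 4.29 and 6.97 over all libraries, and its log2 difference between the groups was 0.077 (exact permutation p = 0.743, adjusted p = 0.743 over 2 ratios), with the reads split as described above. Fpr2 exceeded Fpr1 by 6.66, 6.86, 6.52 and 4.48 times in ICAM1-low and by 15.7, 6.54, 9.17 and 11.1 times in ICAM1-high replicates 1, 2, 3 and 5. Only ICAM1-high replicate 2 lay within the ICAM1-low range. The log2 difference was 0.74 (exact permutation p = 0.0857, adjusted p = 0.171). A ratio that reached the smallest p alone would have an adjusted p of 0.0571, so the design could not call 1 ratio by itself. The log2 differences of the Mrgpra2 and formyl peptide receptor ratios were 0.082 and 0.60 with the library labelled ICAM1-low replicate 5 left out.

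**Figure D4:**
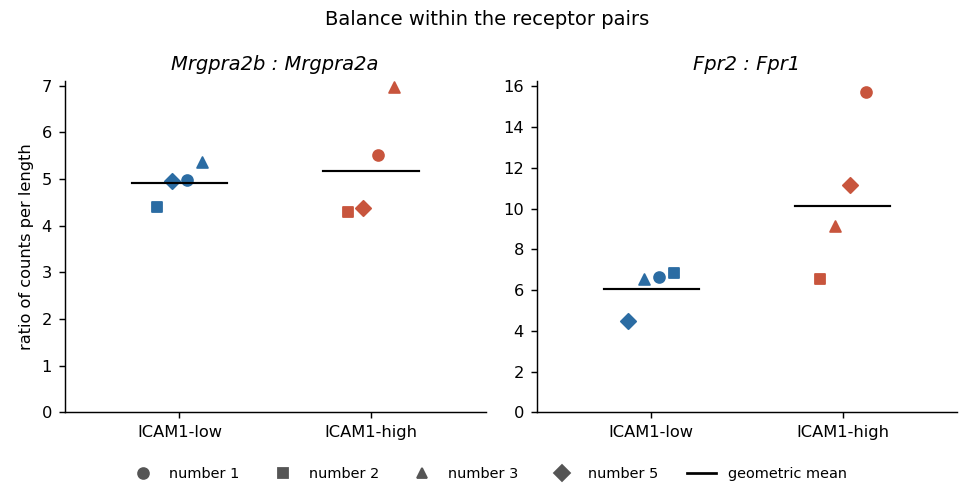
Ratio of Mrgpra2b to Mrgpra2a (left) and of Fpr2 to Fpr1 (right), each as estimated counts per length (linear vertical axis from 0), in the 4 ICAM1-low (blue) and 4 ICAM1-high (red) libraries, with symbols for the library number and a line at the geometric mean. The Mrgpra2 ratio lies between 4.29 and 6.97 in all libraries, and the Fpr2 to Fpr1 ratio reaches 15.7 in ICAM1-high replicate 1.

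Levels of different receptors were compared per length, as counts per base scaled to the same sum in every library (TPM). In ICAM1-low libraries the order of the means was Hcar2 (1489 ± 2127), Fpr2 (785 ± 344), Ptafr (275 ± 290), Mrgpra2b (233 ± 130), Fpr1 (137 ± 79.4), Mrgpra2a (48.1 ± 27.3) and Ltb4r1 (43.6 ± 38.7 TPM; SD, n = 4). No receptor was apart from the next in this order, since the ranges of all 6 neighbouring pairs overlapped. In ICAM1-high libraries Fpr2 led (380 ± 264), followed by Hcar2 (248 ± 131), Ptafr (164 ± 45.1), Fpr1 (36.7 ± 21.6), Mrgpra2b (24.8 ± 6.53), Ltb4r1 (4.81 ± 4.16) and Mrgpra2a (4.72 ± 1.24 TPM; SD, n = 4). There Ptafr was above Fpr1 and Mrgpra2b above Ltb4r1 without overlap, and the other neighbours overlapped. The ICAM1-low order depended on the library labelled ICAM1-low replicate 5. In the other 3 ICAM1-low libraries Fpr2 led (689 ± 351), followed by Hcar2 (437 ± 376), Mrgpra2b (176 ± 72.6), Ptafr (131 ± 47.0), Fpr1 (102 ± 49.6), Mrgpra2a (36.9 ± 19.1) and Ltb4r1 (27.6 ± 26.8 TPM; SD, n = 3). There Fpr1 was above Mrgpra2a without overlap, and the other neighbours overlapped. Mrgpra2b was above Fpr1 in all 4 ICAM1-low libraries but in only 2 of 4 ICAM1-high ones.

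The other genes of these receptor families were not in the table or stood at low levels. Of 7 formyl peptide receptor genes, 3 were in the table and 2, Fpr1 and Fpr2, were tested. Fpr3 reached at most 2.36 CPM and stood at 0 in all ICAM1-high libraries. Of 20 Mrgpr genes 5 were in the table and 4 were tested, and the 2 called were Mrgpra2a and Mrgpra2b. Mrgpre averaged 3.72 CPM in ICAM1-low and 2.95 CPM in ICAM1-high, near the ICAM1-high mean of Mrgpra2a (3.37 CPM). It differed by -0.34 ± 1.34 on the log2 scale (SE, edgeR adjusted p = 0.925). Mrgprf, at 1.72 CPM on average in ICAM1-low, differed by -2.04 ± 1.50 on the log2 scale (SE; adjusted p = 0.521 by edgeR).

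Among 24 tested receptors for other chemoattractants, lipids and metabolites, 2 rose and 0 fell, with a median log2 fold change of 0.23. Over all tested genes 1.22% were higher and 0.273% lower by the same rule. C3ar1, the receptor for the complement fragment C3a, went from 31.6 to 79.8 CPM in ICAM1-low libraries to 352 to 893 CPM in ICAM1-high libraries (log2 fold change 3.41 ± 0.51, SE; edgeR adjusted p = 0.0127). Lpar6, a receptor for lysophosphatidic acid, rose by 3.19 ± 0.46 on the log2 scale (edgeR adjusted p = 0.0119). Cxcr2, the receptor for neutrophil-attracting CXC chemokines and also one of the neutrophil markers above, had a log2 fold change of -3.23 ± 0.71 and lay just outside the threshold (edgeR adjusted p = 0.0502). These other receptors were thus spread in both directions, with 14 positive and 10 negative values. Among the negative ones were Cxcr1 (-3.85, edgeR adjusted p = 0.062) and C5ar1 (-1.32, edgeR adjusted p = 0.399). A negative direction is therefore not particular to the 7 described here. All 7 were negative with all libraries, and 6 of the 7 with the library labelled ICAM1-low replicate 5 left out. Without that library, 26 of the other receptors were tested and 7 were called, with a median of 1.18. Of all tested genes, 2.36% were then higher and 1.69% lower. C3ar1 (3.38), Lpar6 (3.16), Cysltr1, P2ry6, P2ry14 and Ptger4 were then higher and Cxcr2 (-2.19, edgeR adjusted p = 0.0259) was lower.

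With all libraries, no gene of the signalling chain below the receptors was called. Of 21 tested genes for Gi subunits, phosphoinositide 3-kinase gamma, phospholipase C and Rac activation, 0 passed the edgeR threshold in either direction. With 1.22% of all tested genes higher and 0.273% lower, 0 of 21 is no result about this list. At an unadjusted p under 0.05 by edgeR there were 3, against 8.96% of all tested genes lower and 7.96% higher. The median of the 21 was 0.017. The smallest p values were those of Dock5, a Rac activator (log2 fold change -1.30 ± 0.42; edgeR adjusted p = 0.156), Gng12, a G protein gamma subunit (-1.32 ± 0.57; 0.274), and Prkcb, a protein kinase C gene (1.26 ± 0.56; 0.288). Leaving out the library labelled ICAM1-low replicate 5, 1 of the 21 was called higher, where 2.36% of all tested genes were. It was Pik3r5, a regulatory subunit gene of phosphoinositide 3-kinase gamma, and the median of the 21 was 0.046. The group that ends receptor signalling did hold calls: of 14 tested receptor kinases, arrestins and RGS proteins, 3 rose and 0 fell, with a median of -0.27. These were the receptor kinase gene Grk3, from 5.29 ± 4.95 to 141 ± 35.6 CPM (SD, n = 4), or by 4.73 ± 0.71 on the log2 scale (SE; adjusted p = 0.0131 by edgeR), Rgs10 (4.12 ± 0.59; adjusted p = 0.0119) and Rgs1 (3.42 ± 0.55; adjusted p = 0.0167). All 3 were still called, at 4.41, 4.13 and 3.56, with the library labelled ICAM1-low replicate 5 left out. The 2 RGS genes encode proteins that speed up the switching off of G proteins. In the same libraries 11 of 17 macrophage markers rose by the same rule, and their part in these 3 calls and in those of C3ar1 and Lpar6 was not tested.

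Of 20 tested genes for the ligands and their synthesis or breakdown, 0 passed the threshold by edgeR, with 4 positive and 16 negative values and a median of -0.57. With 1.22% of all tested genes higher and 0.273% lower, 0 of 20 is no result about this list. At an unadjusted p under 0.05 by edgeR there were 5, against 8.96% of all tested genes lower and 7.96% higher. Again 0 passed with the library labelled ICAM1-low replicate 5 left out, with a median of -0.44. Those with the smallest p were Alox5, whose 5-lipoxygenase begins leukotriene synthesis (log2 fold change -2.97 ± 0.82; edgeR adjusted p = 0.103), Camp, which encodes cathelicidin (-4.48 ± 1.25; 0.108), and Anxa1, which encodes annexin A1 (-1.75 ± 0.61; 0.181). Anxa1 averaged 904 ± 475 CPM among ICAM1-low and 269 ± 135 CPM among ICAM1-high libraries (SD, n = 4).

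**Figure D5:**
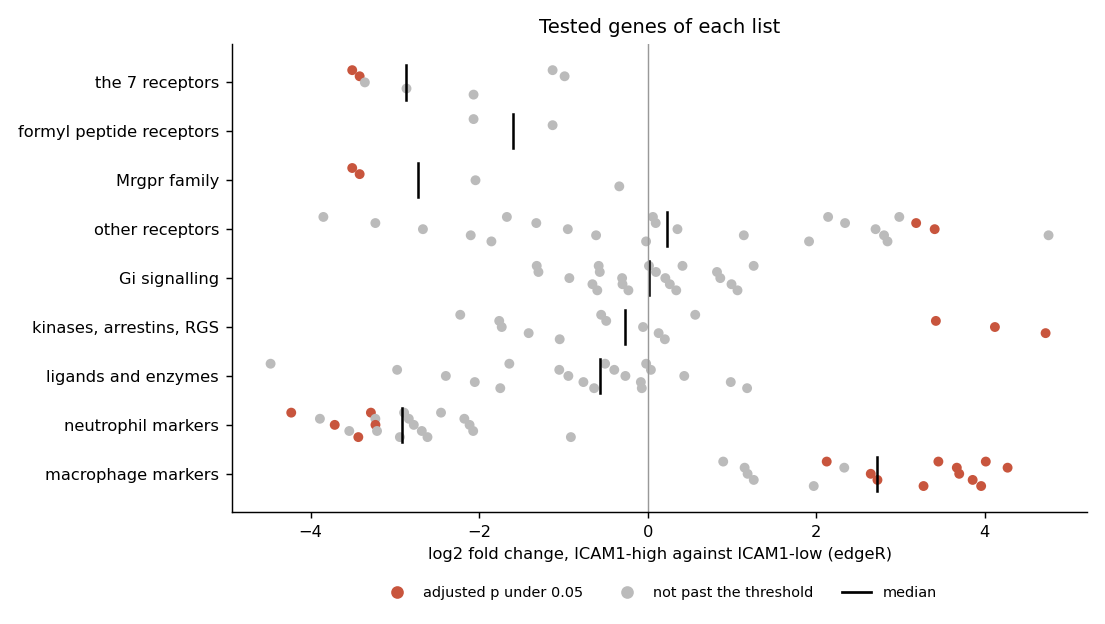
Log2 fold change between ICAM1-high and ICAM1-low libraries (horizontal axis) of every tested gene in each list, red where the edgeR adjusted p is under 0.05 and grey otherwise, with a line at the median. The 7 receptors all lie below 0 with a median of -2.86, near that of the neutrophil markers (-2.92). The Gi signalling genes centre on 0.017 and the macrophage markers on 2.73. Without the library labelled ICAM1-low replicate 5, not drawn here, the medians were -1.45 for the receptors and -2.03 for the neutrophil markers. Then 6 of the 7 receptors and all 20 neutrophil markers were negative.

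The genes whose levels followed each receptor most closely over the 8 libraries were found by Pearson's r of log2(CPM + 0.5), among genes whose average log2 CPM was at least 4. The libraries fall into 2 groups and each library's depth and cell makeup enter every gene's level in it, so r describes these libraries only. For Mrgpra2a they were Mrgpra2b (r = 0.99), the interferon-induced membrane protein gene Ifitm1 (0.98) and Cxcr2 (0.98). For Mrgpra2b they were Mrgpra2a, Ifitm1 (0.98) and the kinase gene Snrk (0.97). The r between Mrgpra2a and Mrgpra2b depends on the uncertain split of reads described above, so it is no separate result. Fpr1 was followed by the sorting receptor gene Sorl1 (0.99), the diacylglycerol kinase gene Dgkg (0.98) and Pag1 (0.98), and Fpr2 by Dhrs7 (0.97), the adhesion receptor gene Adgre5 (0.96) and Tbc1d14 (0.95). Ptafr was nearest to Samhd1 (0.99), Cmtr1 (0.98) and the cytokine gene Il15 (0.98), Ltb4r1 to Capn1 (0.97) and the lactate transporter gene Slc16a3 (0.97), and Hcar2 to the innate sensor gene Nod1 (0.99), Tnfrsf23 (0.98) and the glycolytic enzyme gene Pkm (0.97). None of these neighbours other than Mrgpra2a and Mrgpra2b was past the edgeR threshold. Among the receptors themselves r was 0.93 for Fpr1 with Fpr2, 0.93 for Fpr1 with Mrgpra2a and 0.87 for Ltb4r1 with Hcar2, and it was lowest for Fpr2 with Hcar2 and with Ltb4r1 (0.38 each). Over the 7 libraries other than that labelled ICAM1-low replicate 5, these values were 0.90, 0.87, 0.80, -0.26 and 0.032. For Ptafr with Hcar2, r was 0.78 over 8 libraries and -0.057 over these 7. The neighbours named above had r of 0.87 to 0.99 over these 7 libraries, though other genes may be nearer there.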

How the data were processed

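RNA was measured in 8 libraries, 4 of ICAM1-high and 4 of ICAM1-low sorted neutrophils, made with an RNeasy Micro kit and the QIAseq FX Single Cell RNA kit from 150 pg of RNA, per the labels' protocols. Trim Galore 0.6.6, Salmon 1.9.0 and build GRCm39 are named in the submitters' processing notes. For the annotation and the step from transcripts to genes, nothing is given in the sources used here. The authors deposited estimated counts per gene, with 1 length per gene. Each library's column is named in its description.

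Repeated identifiers (88, identical values) were kept once, and 6482 genes listed under identifiers took symbols from the reference table. Counts were rounded, filtered with filterByExpr, scaled by TMM and tested with edgeR 4.0.16 in R 4.3.3, with group as the only term. The SE is the log2 fold change divided by the square root of F. DESeq2 1.42.0 and limma 3.58.1 served as alternatives. CPM uses TMM-adjusted library sizes. The fit was tested on simulated counts. The labels do not tie the libraries to animals. The p-values therefore reflect only how far these 8 libraries spread, and that spread may be technical. No molecular identifiers are mentioned, so counts need not be molecules and floors cover counting error only.

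The members, lists and tests were chosen with earlier results of these data known. Named genes are the 7 receptors, the 3 genes nearest to each by r (predicted genes, pseudogenes and receptor segments left out, and 1 gene not reported here) and, in each pathway list, those called and the 3 with the smallest p. Icam1, Fpr3, Mrgpre, Cxcr1, C5ar1, Ly6g, Flt3, Gzma, Epx and Fcer1a are named besides, chosen after their values were seen. Promoters are from RefSeq, transcripts from GENCODE M21, both on GRCm38, aligned with Biopython 1.88. Strand use in counting is not stated. Alternatives were other scalings, filters and tools, a replicate term, summing the Mrgpra2 pair, and leaving out libraries.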

Additional observations from a re-analysis of the deposited data

Results flagged for a closer look

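Of 34 groups of 4 values examined, 5 held a library far from the others (a gap to the nearest above Dixon's critical value for 4). The chance rate of about 1 in 20 holds for independent groups of normally distributed values. These groups share the same libraries and many are on a linear scale, so the count cannot be weighed against that rate. The library labelled ICAM1-low replicate 5 was far above its group for Ptafr (2060 CPM), Hcar2 (6909 CPM) and Icam1 (138 CPM), and its Fpr2 to Fpr1 ratio (4.48) was far below its group. ICAM1-high replicate 5 was far above its group for Hcar2 (551 CPM). Both libraries carry the number 5. The library labelled ICAM1-low replicate 5 also had the lowest total and the lowest sample weight in limma-voom (0.327). What sets it apart was not tested.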

How the results depend on the processing

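Over all alternatives no receptor was called higher. The receptors called lower were 2 in the reported fit, 5 with DESeq2, 1 without both libraries numbered 5, 1 of 6 with the Mrgpra2 pair summed, and 0 to 2 when 1 library was left out. Mrgpra2b kept its call in 9 of 9 and Mrgpra2a in 8 of 9 alternatives that did not leave out a single library. All log2 fold changes of the receptors stayed negative except that of Ptafr (-1.30 to 0.36 with 1 library left out), which was 0.011 with limma-voom, 0.36 without the library labelled ICAM1-low replicate 5 and 0.47 without both libraries numbered 5. Genes called higher and lower over the table were 166 and 37. They were 847 and 745 with DESeq2, 460 and 349 with limma-voom, 4 to 337 and 0 to 241 with 1 library left out, and 258 higher with library sizes only. Lower calls were 120 without a filter, 61 with the stricter filter and 190 without both libraries numbered 5. Scaling moved the median over all tested genes from -0.065 with TMM to -0.13 with RLE, 0.065 with upper-quartile scaling and 0.17 with library sizes only. With the replicate block 280 genes were higher and 261 lower, and the same 2 receptors were called. The block moved Hcar2 to -1.60 and Ptafr to -0.24. Whether a number marks a shared animal is not given in the labels: deviations of same-numbered libraries correlated at -0.15, 0.12, 0.15 and 0.38 for numbers 1, 2, 3 and 5, and not every library correlated best with its own number. The log2 difference of the Mrgpra2b to Mrgpra2a ratio was -0.065 without ICAM1-high replicate 3, and the other ratio values kept their sign. The adjusted permutation tests of relative levels and of ratios are too small to show stability. Ltb4r1 and Mrgpra2a had the lowest mean CPM of the receptors, with SEs of 1.03 and 0.69 in the reported fit. The SE of Hcar2, at far higher counts, was also 1.03. What sets these SEs and what caused the changes between alternatives was not tested.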
